A study of Mus musculus with 14 samples.

Results

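The loci of 8 transcription factors that define the hepatocyte were examined in DNase-seq profiles of mouse liver: Hnf4a, Foxa1, Foxa2, Foxa3, Cebpa, Cebpb, Nr5a2 and Prox1. A member region was any stretch, merged from the peaks of all libraries at 1 bp of overlap, that touched the body of 1 of these genes or lay within 20 kb of it. The 8 loci held 80 member regions of 48148 regions on the autosomes and X. The libraries came from livers of CD-1 mice aged 7 weeks, and each was a pool of fragments from 3 livers, or from 2 livers in hypox female pool 1. There were 4 pools of pituitary-intact females, 2 of hypophysectomized (hypox) females, 2 of hypox males without growth hormone (GH), and 2 each of hypox males killed 30, 90 and 240 min after 1 injection of recombinant rat GH at 125 ng per g body weight. Removal of the pituitary takes away GH and also the pituitary hormones that drive the adrenal, thyroid and gonads, and all male libraries came from hypox animals. The labels do not say whether each untreated hypox male had received the vehicle. Untreated hypox males carried the title code G103, while all GH-treated males and the hypox females carried G92. Among intact females, pools 1 and 2 carried G92 and pools 3 and 4 carried G93, so code and pituitary state are in part confounded in females. The labels give no meaning for the code, so code and GH cannot be told apart against the hypox males, nor code and sex between hypox males and females. For this reason GH-treated males were also compared with hypox females, where GH and sex cannot be told apart.

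DNase I cuts open chromatin, such as promoters and enhancers from which nucleosomes have been displaced. HNF4A, a nuclear receptor, the forkhead factors FOXA1, FOXA2 and FOXA3, and the leucine zipper factors C/EBPα and C/EBPβ are known to bind each other's genes and those of plasma proteins and metabolic enzymes. NR5A2 (LRH-1) is a nuclear receptor of bile acid synthesis, and PROX1 is a homeobox factor needed for hepatocyte development. In liver, GH acts through its receptor and the kinase JAK2 on STAT5, a factor that binds the palindrome TTCNNNGAA.

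The sequences that follow are those of regions on which the results turn, each 200 bp around a peak summit, read from the mouse reference of build mm9. A region is named by the distance of its summit from the start of its gene, with plus for downstream. Capitals mark a match to TTCNNNGAA in 4 regions called after GH.

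Cebpa -11.6 kb (chr7:35892659-35892858, plus strand): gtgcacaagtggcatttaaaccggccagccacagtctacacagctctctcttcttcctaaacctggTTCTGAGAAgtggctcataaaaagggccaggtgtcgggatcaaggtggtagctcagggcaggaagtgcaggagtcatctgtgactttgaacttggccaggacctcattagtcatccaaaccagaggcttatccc

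Foxa1 +8.1 kb (chr12:58638882-58639081, plus strand): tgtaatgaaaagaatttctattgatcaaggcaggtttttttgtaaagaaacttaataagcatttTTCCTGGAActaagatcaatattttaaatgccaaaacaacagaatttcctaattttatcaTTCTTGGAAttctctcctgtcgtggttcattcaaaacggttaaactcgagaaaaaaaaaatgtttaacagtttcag

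Nr5a2 +24.7 kb (chr1:138832252-138832451, plus strand): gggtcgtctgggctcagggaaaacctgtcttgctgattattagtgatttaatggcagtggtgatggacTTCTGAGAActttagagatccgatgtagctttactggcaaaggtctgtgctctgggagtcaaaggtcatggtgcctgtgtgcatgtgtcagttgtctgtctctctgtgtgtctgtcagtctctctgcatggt

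Cebpb -17.6 kb (chr2:167496756-167496955, plus strand): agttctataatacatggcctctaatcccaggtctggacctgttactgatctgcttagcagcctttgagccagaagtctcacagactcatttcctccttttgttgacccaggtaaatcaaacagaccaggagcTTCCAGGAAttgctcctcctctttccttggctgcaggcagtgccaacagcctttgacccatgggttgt

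Foxa1 +8.1 kb holds 2 matches, TTCCTGGAA and TTCTTGGAA, which begin 36 bp before and 24 bp after the summit. The match in Cebpa -11.6 kb, TTCTGAGAA, is also the match in Nr5a2 +24.7 kb, and they begin 34 and 32 bp before the summits. The next pair shows regions called at 30 and 90 min that held none of the 8 motifs searched, hence without capitals.

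Nr5a2 +5.1 kb (chr1:138851845-138852044, plus strand): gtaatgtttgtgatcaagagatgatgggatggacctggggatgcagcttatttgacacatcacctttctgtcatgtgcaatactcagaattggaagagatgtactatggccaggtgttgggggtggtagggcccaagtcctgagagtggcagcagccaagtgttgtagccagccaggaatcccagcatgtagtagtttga

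Foxa3 +5.4 kb (chr7:19603368-19603567, plus strand): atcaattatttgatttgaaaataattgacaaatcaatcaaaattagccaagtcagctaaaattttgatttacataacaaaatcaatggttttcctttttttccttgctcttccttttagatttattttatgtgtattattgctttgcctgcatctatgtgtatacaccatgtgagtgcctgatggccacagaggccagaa

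In the window of the Foxa2 region that gained signal after GH, capitals mark the HNF6 motif ATCGAT and a match to the C/EBP motif TTNNGCAA on the minus strand. HNF6 is a liver factor of the onecut family.

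Foxa2 +6.6 kb (chr2:147865986-147866185, plus strand): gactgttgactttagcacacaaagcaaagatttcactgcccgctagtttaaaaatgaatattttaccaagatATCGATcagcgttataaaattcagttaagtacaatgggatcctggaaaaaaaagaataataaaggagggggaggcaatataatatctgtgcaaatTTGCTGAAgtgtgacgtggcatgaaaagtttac

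Depth ran from 13078268 to 33700120 tags per library, and the lists held 17691 to 35851 peaks. Hypox male pool 2 had the most tags and intact female pool 3 the fewest. Between 34 member regions (hypox female pool 1) and 57 (intact female pool 4) were called in a library, which was 0.164 to 0.221% of its called regions. Intact female pool 3 stood apart. It had no call at the Cebpb locus and none at the start of Cebpa or Foxa3, although 3 Cebpb regions and both of these start regions were called in the other 13 libraries. The hepatocyte markers were accessible throughout: of 9 annotated marker genes 8 had a region, and every library called a region at all 8. Endothelial markers had a region at 6 of 6 genes, with 4 to 6 called per library, and were called at 6 in both hypox male pools and at 4 to 5 in the hypox female pools. Stellate markers had a region at 2 of 6 genes, cholangiocyte markers at 2 of 6, lymphocyte markers at 1 of 6 and Kupffer cell markers at 0 of 6. The part of other cell types in the results was not tested. A missing call means that no peak passed the authors' threshold in that library, and the chromatin may still have been open.

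**Figure D1:**
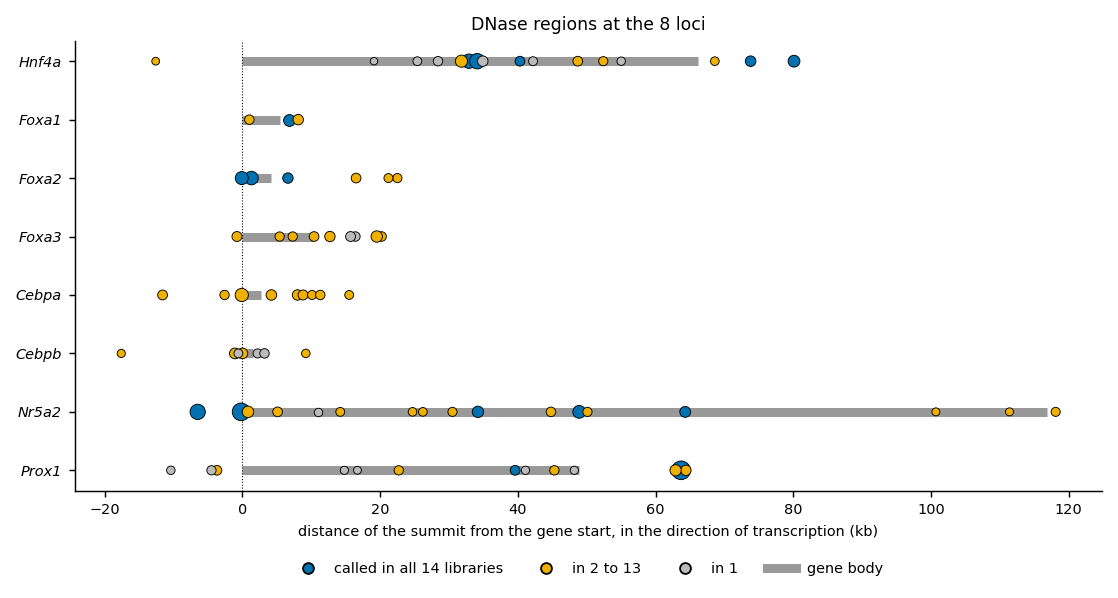
Regions at the 8 loci by distance of the summit from the gene start in kb, with circle area rising with the median ppm (pileup per 1000000 library tags) over the libraries that called the region. Blue regions were called in all 14 libraries, yellow in 2 to 13 and grey in 1, and grey bars are the gene bodies. Foxa3, Cebpa and Cebpb have no blue region.

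Of the 80 member regions, 16 were called in all 14 libraries, 46 in 2 to 13 and 18 in 1. Over all regions 15.4% were called in all 14 libraries and 22.6% in 1, where the members had 22.5% in 1. Upstream of the gene start lay 14 summits, between the gene's ends 38 and downstream 28. A region held the start of 5 genes, Foxa2, Foxa3, Cebpa, Cebpb and Nr5a2. No region held the start of Hnf4a, Foxa1 or Prox1, taking the most upstream annotated transcript. Nr5a2 had 17 regions, Hnf4a 16, Prox1 13, Foxa3 and Cebpa 9 each, Cebpb 7, Foxa2 6 and Foxa1 3. These numbers follow in part the length of the windows, and per 10 kb they were 0.66 at Foxa1, 1.08 at Nr5a2 and 2.11 at Cebpa.

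The start of Nr5a2 had the highest fold of the member regions. MACS2's fold enrichment, the authors' own value for each peak over its local background, was 15.79 ± 1.34 (SD, n = 14) at Nr5a2 -0.2 kb (chr1:138856859-138857603). Pileup, the tag depth at the summit, is given per 1000000 tags of the library, written ppm. It was 12.7, 7.78, 17.1 and 13.8 in the intact female pools, 8.26 and 11.2 in hypox females, and 9.82 and 8.04 in hypox males. It was 9.34 and 6.87 at 30 min, 7.51 and 7.63 at 90 min, and 17.9 and 9.21 at 240 min. Pool 1 of 240 min and intact female pool 3 were the highest, and both 90 min pools were below every library but pool 2 of 30 min. All 10 comparisons tested at this region missed the adjusted threshold (limma, adjusted p 0.446 to 0.997). A second region, Nr5a2 -6.5 kb (chr1:138863059-138864150), had a fold of 13.55 ± 1.8 (n = 14). Prox1 +63.7 kb (chr1:191930420-191931346), downstream of the gene that encodes PROX1, had the highest median pileup of the member regions, 10.5 ppm, and a fold of 14.38 ± 1.9 (n = 14).

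At Hnf4a, the regions called in all 14 libraries were led in pileup by +34.1 kb (chr2:163366206-163366972), in an intron, with 4.78 to 10.1 ppm and a fold of 7.88 ± 1.29 (n = 14). Another, +40.3 kb (chr2:163372399-163373044), held 3 further annotated Hnf4a transcript starts, with 0.841 to 3.84 ppm. The highest fold at the locus was at +80.1 kb, downstream of the gene (chr2:163412228-163413109), at 10.6 ± 1.76 (n = 14). At Foxa1 the region called in all libraries lay just past the gene at +6.7 kb (chr12:58640019-58640841), at 1.87 to 4.85 ppm. Foxa2 had 3 such regions, -0.1 kb at its start (chr2:147872355-147873243), +1.3 kb in the gene (chr2:147871166-147872239) and +6.6 kb downstream (chr2:147865666-147866372).

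The start regions of Cebpa (chr7:35903733-35904711), Cebpb (chr2:167514039-167514830) and Foxa3 (chr7:19608729-19609898) were called in 13 libraries, all but intact female pool 3. Pileup at the Cebpa start was 3.74 to 7.15 ppm and the fold 6.32 ± 1.35 (n = 13). At the Cebpb start the fold was 4.97 ± 0.74 (n = 13), and a neighbour at -1.1 kb (chr2:167513075-167513591) had 5.25 ± 1.0 (n = 13). Both Cebpb regions also lie within Tmem189, a gene that overlaps the locus in the annotation. The region at the Foxa3 start had its summit 78 bp from the start of Sympk, a neighbour, so the signal cannot be assigned to either gene. Foxa3 +19.5 kb (chr7:19589237-19589756) lay likewise 16 bp from the start of Irf2bp1.

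**Figure D2:**
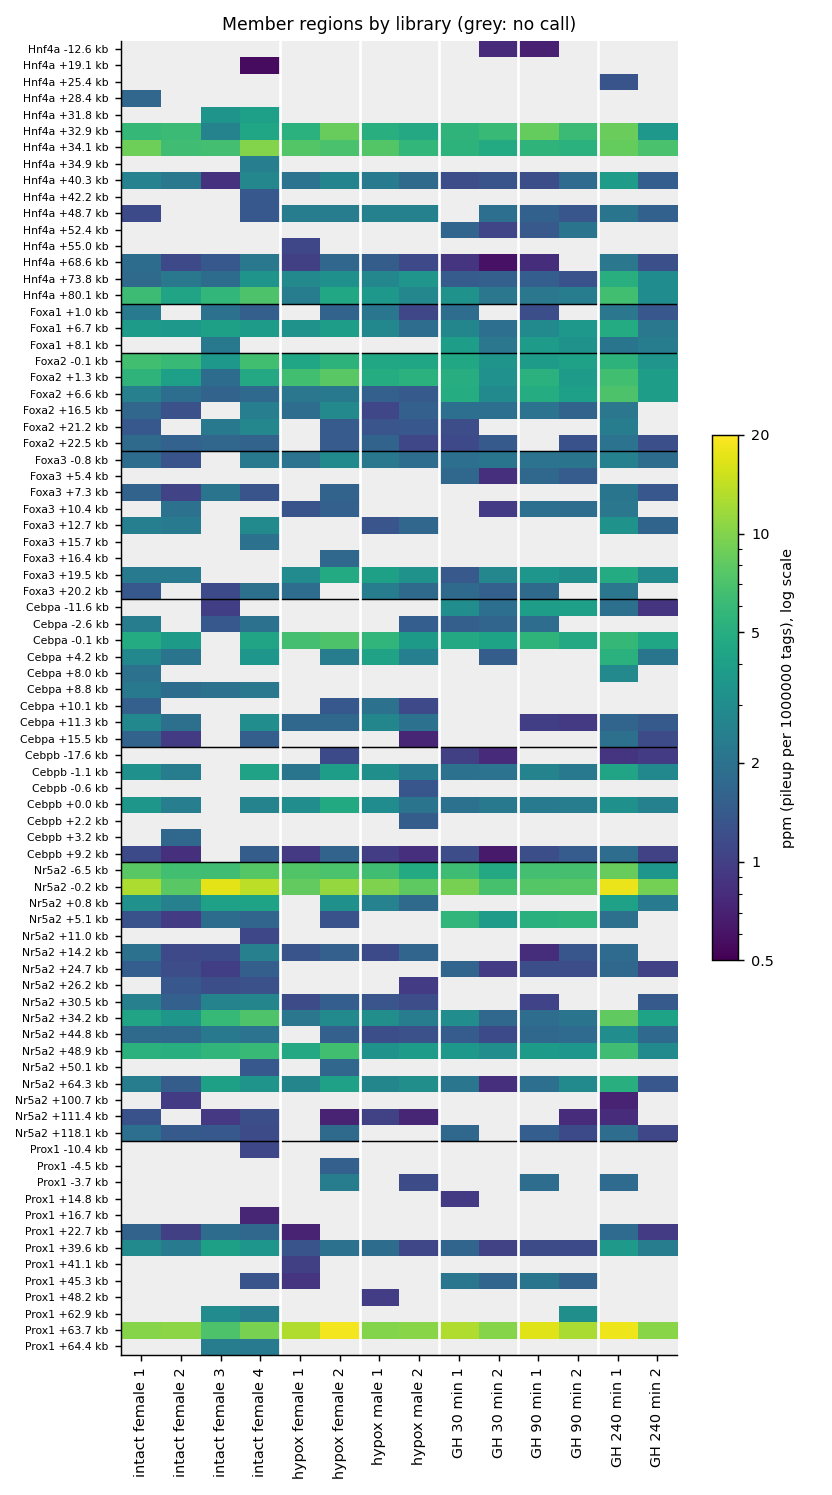
Scaled pileup (ppm, per 1000000 tags), on a log colour scale, of the 80 member regions in the 14 libraries, with regions of each gene ordered from upstream to downstream. Grey cells have no call. Cebpa -11.6 kb and Foxa1 +8.1 kb are coloured in all 6 GH libraries and in intact female pool 3, and in no untreated hypox library.

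The first question was which regions appeared after the GH pulse. A region counted as specific to a side when every library of that side and none of the other called it. Against the 4 untreated hypox libraries of both sexes, 3 of the 68 member regions called in either side were specific to GH at all times, at Cebpa, Foxa1 and Nr5a2. Over all regions the share was 0.397%. In the opposite direction there were 0 member regions, against 0.142% of all. This comparison was added with the data in view. The GH libraries share code G92 with hypox females alone, but not sex. That comparison gave the same 3 of 64, against 0.767% of all regions, and 0 the other way, against 0.454%. With peaks of −log10 p of at least 10, the count against hypox females was 0 for GH and 1 for hypox females.

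Cebpa -11.6 kb (chr7:35892455-35893107, intergenic) was called in all 6 GH libraries, with pileups of 3.07 and 1.91 ppm at 30 min, 3.96 and 4.01 at 90 min and 1.95 and 0.887 at 240 min. It had no call in the 4 untreated hypox libraries, and among intact females it was called in pool 3 alone, at 0.994. The pools of 90 min were the highest and those of 240 min overlapped those of 30 min. The fold over the 6 GH libraries was 11.26 ± 4.04 (n = 6). In the untreated hypox libraries, 13.4 to 37.3% of the peaks had a pileup below the lowest GH value at this region. Times were compared with limma on the GH libraries alone, over the 13335 regions that all 6 called, a fit added with the data in view. The signal fell from 90 to 240 min by 1.72 ± 0.26 on the log2 scale (adjusted p = 0.00517, where 7.72% of all regions passed), and this held in all 7 alternatives run (0.00369 to 0.0486). Between 240 and 30 min the difference was -1.13 ± 0.26 (limma, adjusted p = 0.0349, where 4.71% of all passed), lost without 30 min pool 1 or either 240 min pool and without centring (up to 0.343). Between 90 and 30 min it was 0.59 (95% interval 0.02 to 1.16) and missed the threshold (limma, adjusted p = 0.488).

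Foxa1 +8.1 kb (chr12:58638685-58639488, intergenic) had 3.87 and 2.15 ppm at 30 min, 3.84 and 3.28 at 90 min and 2.1 and 2.39 at 240 min. Intact female pool 3 called it at 2.22, and no other untreated library did. Both 90 min pools were above both 240 min pools, and the 30 min pools overlapped both groups. In the fit on GH libraries alone the log2 difference between 240 and 90 min was -0.79 ± 0.33 and missed the threshold (limma, adjusted p = 0.179). The fold over GH libraries was 5.03 ± 1.32 (n = 6). Of the peaks in untreated hypox libraries, 60.8 to 77.3% had a pileup below the lowest GH value here.

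Nr5a2 +24.7 kb (chr1:138831997-138832504), in an intron, was called in all 6 GH and all 4 intact female libraries and in no untreated hypox library. Its pileup was 1.67 and 0.956 at 30 min, 1.22 and 1.2 at 90 min and 1.74 and 1.02 at 240 min, within or next to the 0.994 to 1.53 of the intact females. The fold was 5.6 ± 1.01 over GH libraries (n = 6) and 4.57 ± 0.58 over intact females (n = 4). This pattern of calls was shared by 61 of all 48148 regions, or 0.127%, and by 1 member. Of peaks in the untreated hypox libraries, 17.9 to 42.9% had a lower pileup than the lowest GH value.

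All 3 regions held the STAT5 motif. So did 98 of the 154 regions of this class over the genome, or 63.6%, against 9.2% of all regions. Over all members the STAT5 motif stood in 9 of 80 windows, 11.2%. A match is a description of letters and not evidence of binding.

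**Figure D3:**
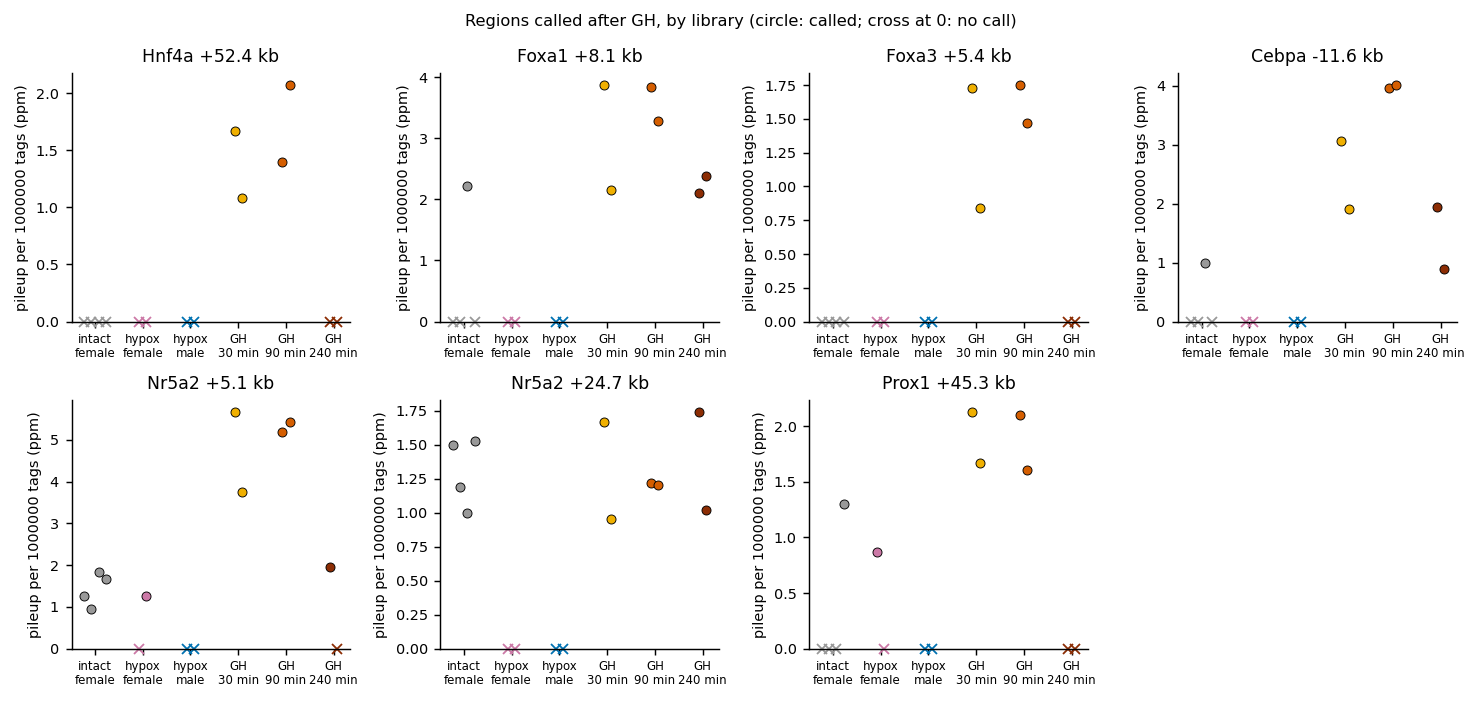
Scaled pileup (ppm) in each library at the 7 regions specific to both 30 and 90 min against hypox males, with circles for calls and crosses at 0 for libraries without a call. Nr5a2 +24.7 kb alone among these 7 is called in all intact female and all GH libraries, and Hnf4a +52.4 kb and Foxa3 +5.4 kb are called at 30 and 90 min only.

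Each time after GH was then compared with untreated hypox males. At 30 min against hypox males, 8 of the 57 member regions called in either group were specific to GH, against 4.97% of all regions, and 5 of the 8 held the STAT5 motif. At 90 min it was 9 of 56, against 5.57%, with the motif in 4. At 240 min it was 7 of 57, against 2.61%, with the motif in 4. In the opposite direction 7, 5 and 1 member regions were specific to hypox males, against 8.3%, 7.5% and 3.97% of all regions. With peaks of −log10 p of at least 10, the split at 240 min was 1 for GH and 3 for hypox males. The 3 comparisons share the hypox male libraries. Among all regions of these classes the motif stood in 46.5%, 45.2% and 30.5%. With 2 pools a side, the smallest p of an exact permutation test is 0.33, so no test of a single region's calls was possible.

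Hnf4a +52.4 kb, in an intron, was called only at 30 min, at 1.67 and 1.08 ppm, and at 90 min, at 1.4 and 2.07. Foxa3 +5.4 kb (chr7:19603238-19603718), also intronic, was likewise called only at 30 min, at 1.73 and 0.837, and at 90 min, at 1.75 and 1.47. Both were without a call in every untreated and every 240 min library. Their folds were 5.0 ± 1.28 and 5.01 ± 0.81 (n = 4 each). Over the genome 207 regions, 0.43%, had calls in these 4 libraries and no other.

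Nr5a2 +5.1 kb (chr1:138851543-138852128) is named because of its values and not by the rule for naming regions. Its pileup was 5.67 and 3.76 ppm at 30 min and 5.18 and 5.42 at 90 min. At 240 min it was 1.95 in pool 1, with no call in pool 2. Intact females had 1.26, 0.95, 1.84 and 1.67, hypox female pool 2 had 1.26, and hypox female pool 1 and both hypox male pools had no call. The 4 early libraries were thus above every other library. The authors' fold was 11.05 and 10.53 at 30 min and 11.28 and 11.65 at 90 min, and 3.27 to 4.81 in the 6 other libraries that called the region.

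Prox1 +45.3 kb (chr1:191948687-191949613, intronic) had 2.13 and 1.67 ppm at 30 min and 2.1 and 1.61 at 90 min. Intact female pool 4 called it at 1.3 and hypox female pool 1 at 0.869. Those 2 calls were below the 4 early values. Cebpb -17.6 kb (chr2:167496690-167497052), in an intron of Tmem189, was called at 30 min, at 1.0 and 0.777, and at 240 min, at 0.869 and 0.955, but not at 90 min. Hypox female pool 2 called it at 1.14, above all 4 GH values. Foxa3 +10.4 kb (chr7:19597810-19598643) was specific to 90 min against hypox males, at 1.92 and 1.87, but both hypox female pools also called it, at 1.3 and 1.56.

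At 240 min the regions specific to GH included 4 that every intact female library called, among them Nr5a2 +24.7 kb. How often this held over all regions specific to 240 min was not counted, so the 4 cannot be called particular to these loci. Foxa3 +7.3 kb (chr7:19601446-19601899) had 2.1 and 1.36 ppm at 240 min, 1.07 to 2.06 in intact females and no call in hypox males or at 30 and 90 min. Prox1 +22.7 kb (chr1:191971585-191972164) had 1.81 and 0.955 at 240 min and 1.01 to 1.84 in intact females, again with no call in hypox males or at the earlier times. Nr5a2 +118.1 kb (chr1:138738492-138739375), just past the gene, had 1.88 and 1.09 at 240 min, 1.51 and 1.14 at 90 min, 1.73 in pool 1 of 30 min and 1.16 to 1.91 in intact females, with no call in hypox males. At each of these 3 further regions the values of 240 min and intact females overlapped, and 1 hypox female pool also called the region.

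Calls present in hypox males and absent after GH were counted in the same way. Regions specific to hypox males numbered 7 of 57 against 30 min, where the share of all regions was 8.3%, 5 of 56 against 90 min, where it was 7.5%, and 1 of 57 against 240 min, where it was 3.97%. None held the STAT5 motif, which stood in 3.02%, 3.09% and 4.53% of all regions of these 3 classes. These classes rest on calls alone, and hypox male pool 2 had 33700120 tags, against 13813596 to 17174839 in the GH libraries. The part of depth was not tested. Cebpa +10.1 kb (chr7:35914215-35914664) had no call at any of the 3 times, and a fold of 2.85 to 3.62 in the 4 libraries that called it. Its pileup was 2.01 and 1.13 ppm in hypox males, 1.38 in hypox female pool 2 and 1.56 in intact female pool 1, and no other library called it. Foxa3 +12.7 kb (chr7:19595717-19596304) was called at 1.32 and 1.69 in hypox males and at 3.33 and 1.64 at 240 min, with no call at 30 and 90 min. Of intact females, 3 pools called it at 2.32 to 2.92, and no hypox female pool did. Nr5a2 +0.8 kb (chr1:138856055-138856415), beside the start region, was called at 2.58 and 1.78 in hypox males, 4.13 and 2.25 at 240 min and 2.49 to 4.27 in intact females and 3.18 in hypox female pool 2, and again not at 30 or 90 min. Foxa2 +21.2 kb (chr2:147851201-147851643) had 1.32 and 1.36 in hypox males and no call at 90 min. Its calling was patchy elsewhere, with 1.2 in pool 1 of 30 min and 2.39 in pool 1 of 240 min. Hypox female pool 2 had 1.44 and 3 intact female pools 1.38 to 2.74, and the other libraries did not call it. Against 30 min the remaining regions specific to hypox males were Cebpa +11.3 kb and 3 in Nr5a2 at +14.2, +30.5 and +111.4 kb. Against 90 min the other was Cebpa +4.2 kb.

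Signal strength was compared at the 16 member regions called in all 14 libraries. The log2 of the ppm was centred on each library's median over the 7423 regions called in every library and tested with limma over all of these. P-values were adjusted by Benjamini and Hochberg over the 7423. Positive log2 values mean a higher value in the group named first. Pools were the replicates, so these p-values set a difference of group means against the spread between pools. That spread was estimated over all groups together and drawn towards the spread of other regions. The centring matters: without it the median of all regions shifted by 0.38 between 240 min and hypox males and by 0.36 between 240 and 30 min, on the log2 scale. All changes are therefore relative to the library median.

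Of the 16 tested member regions, Foxa2 +6.6 kb alone rose past the threshold after GH against untreated hypox libraries. Regions without a call in some library could not enter this test. Its summit lay 147 bp from the annotated start of 9030622O22Rik, a noncoding RNA gene downstream of Foxa2. Pileup was 4.94 and 2.93 ppm at 30 min, 4.89 and 4.01 at 90 min and 7.17 and 3.96 at 240 min. It was 1.55 and 1.42 in hypox males, 2.17 and 2.22 in hypox females and 1.61 to 2.51 in intact females. All 6 GH libraries were above all 8 others. Against untreated hypox libraries of both sexes the rise was 2.24-fold, a log2 change of 1.17 ± 0.2 (SE), with limma adjusted p = 0.000807, and it stayed past the threshold in all 13 alternatives run. Against hypox males the log2 change was 1.25 ± 0.3 at 30 min (adjusted p = 0.0171), 1.38 ± 0.3 at 90 min (0.00693) and 1.4 ± 0.3 at 240 min (0.0376). Against hypox females, where sex differs too, it was 0.98 ± 0.25 (adjusted p = 0.0313). These single comparisons rest on few pools, and without centring those at 30 min and against hypox females missed the threshold. The adjusted p was up to 0.212 at 30 min without hypox male pool 1, hypox male pool 2 or 30 min pool 1, and up to 0.0865 at 90 min without hypox male pool 1 or 90 min pool 1. It was up to 0.3 at 240 min without any 1 of the 4 pools, and up to 0.265 against hypox females without any 1 pool other than 30 min pool 2. Neither pair of neighbouring times differed past the threshold, with a log2 difference of 0.13 (95% interval -0.51 to 0.77) between 90 and 30 min and of 0.02 (-0.62 to 0.66) between 240 and 90 min. The change from hypox to intact females was -0.37 ± 0.26 and missed the threshold (limma, adjusted p = 0.329).

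Hnf4a +73.8 kb (chr2:163405994-163406681), intergenic and downstream of the gene, fell at the early times. Pileup was 2.76 and 3.44 ppm in hypox males, 1.47 and 1.55 at 30 min, 1.51 and 1.27 at 90 min and 5.07 and 3.0 at 240 min. Hypox females had 2.83 and 3.18 and intact females 1.8, 2.2, 1.84 and 3.39. In ppm the 4 early libraries were below every other library, while relative to the library median intact female pool 1, at -1.0, lay among them. Against hypox males the log2 change was -1.13 ± 0.31 at 30 min (limma, adjusted p = 0.0342) and -1.34 ± 0.31 at 90 min (0.00953). At 240 min it was -0.1 ± 0.31 (0.925). The call at 30 min was lost without any 1 of its 4 pools (adjusted p up to 0.327), and that at 90 min without any 1 but hypox male pool 1 (up to 0.14). The difference between 240 and 90 min was 1.24 ± 0.31 and passed the test (adjusted p = 0.0377), and that between 240 and 30 min, 1.03 ± 0.31, did not (0.116), though it did in the fit on GH libraries alone, at 1.12 ± 0.22 (0.0209). The test between 240 and 90 min was lost under 6 of 9 alternatives, which included leaving out each of the 4 pools. Against untreated hypox libraries of both sexes, all GH libraries together gave -0.74 ± 0.2 (adjusted p = 0.0213), lost in 5 of 13 alternatives, among them no centring (0.298). Against hypox females they gave -0.62 ± 0.25, which missed the threshold (0.198).

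Nr5a2 +34.2 kb (chr1:138822175-138823047, intronic) was higher at 240 min than at 90 min. It had 8.18 and 4.23 ppm at 240 min, 1.86 and 2.07 at 90 min and 3.07 and 1.73 at 30 min. Hypox males had 3.1 and 2.37. The log2 difference between 240 and 90 min was 1.33 ± 0.32 (limma, adjusted p = 0.0334), again lost under 6 of 9 alternatives. The change from hypox males to 240 min was 0.68 ± 0.32 and missed the threshold (0.355). Prox1 +39.6 kb (chr1:191954718-191955188) differed by 1.11 ± 0.33 between 240 and 90 min, which missed it too (0.0764).

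Over the 16 regions, 2 passed at 30 min against hypox males, 1 in each direction, where 7.52% of all tested regions passed. At 90 min 2 passed, against 11.7%, and at 240 min 1, against 0.876%. For all GH against hypox females it was 1, against 3.88%, and against untreated hypox of both sexes 2, against 12.4%. Between times 0 passed for 240 against 30 min, where 1.2% of all passed, 0 for 90 against 30 min, where 0.0% did, and 2 for 240 against 90 min, where 2.67% did. At an unadjusted p under 0.05 by limma, 988 of the 7423 regions differed between 240 and 30 min and 336 between 90 and 30 min. The median log2 change after GH against untreated hypox of both sexes was -0.26 over the 16 members and -0.06 over all regions, and 14 of the 16 were negative, as were 56.5% of all regions. The signs depend on the centring: without it the median of the members was -0.11, and 10 of the 16 and 40.8% of all regions were negative.

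**Figure D4:**
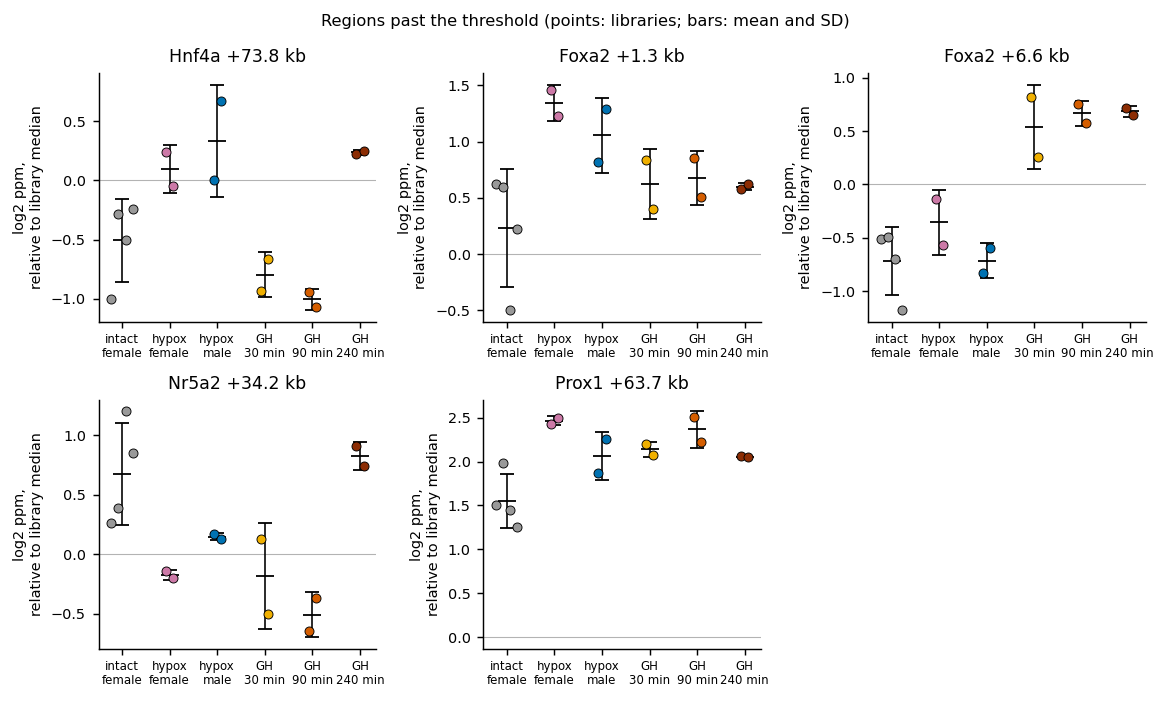
Log2 ppm relative to the library median, per library, at the 5 member regions past the threshold in some comparison, with bars for mean and SD. At Foxa2 +6.6 kb all 6 GH libraries are above all others, and at Hnf4a +73.8 kb the 30 and 90 min libraries lie between -1.07 and -0.66.

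The effect of removing the pituitary was examined in females. Of 72 member regions called in either group, 2 were specific to intact females, against 4.69% of all regions, and 0 to hypox females, against 0.678%. Cebpa +8.8 kb (chr7:35912839-35913244, intergenic) was called in the 4 intact female libraries, at 2.21, 1.84, 1.99 and 2.18 ppm, and in no other library of the 14. Its fold was 3.7 ± 0.78 (n = 4), and its window held the FOXA motif TGTTTAC on the minus strand. The other was Nr5a2 +24.7 kb, which was also called after GH in hypox males. With 4 pools against 2 the smallest p of an exact permutation test is 0.067. With lists cut to equal length, 0 member regions were specific to intact females and 2 to hypox females.

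In signal strength 3 of the 16 member regions passed between intact and hypox females, against 21.6% of all tested regions. Nr5a2 +34.2 kb was higher in intact females, at 4.31, 3.5, 5.96 and 7.19 ppm against 2.17 and 2.88, without overlap. Its log2 change was 0.84 ± 0.28 (limma, adjusted p = 0.0391). Prox1 +63.7 kb was lower, at 10.2, 10.6, 7.11 and 9.56 against 12.9 and 18.7, with a log2 change of -0.92 ± 0.25 (adjusted p = 0.0156). Foxa2 +1.3 kb was lower too, at 5.5, 4.04, 1.84 and 4.64 against 6.59 and 7.75, with -1.11 ± 0.3 (adjusted p = 0.0149). All 3 calls were lost when either hypox female pool was left out. Within the libraries of code G92 the changes were 0.49, -0.72 and -0.74, with adjusted p = 0.188, 0.0529 and 0.0503 by limma.

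**Figure D5:**
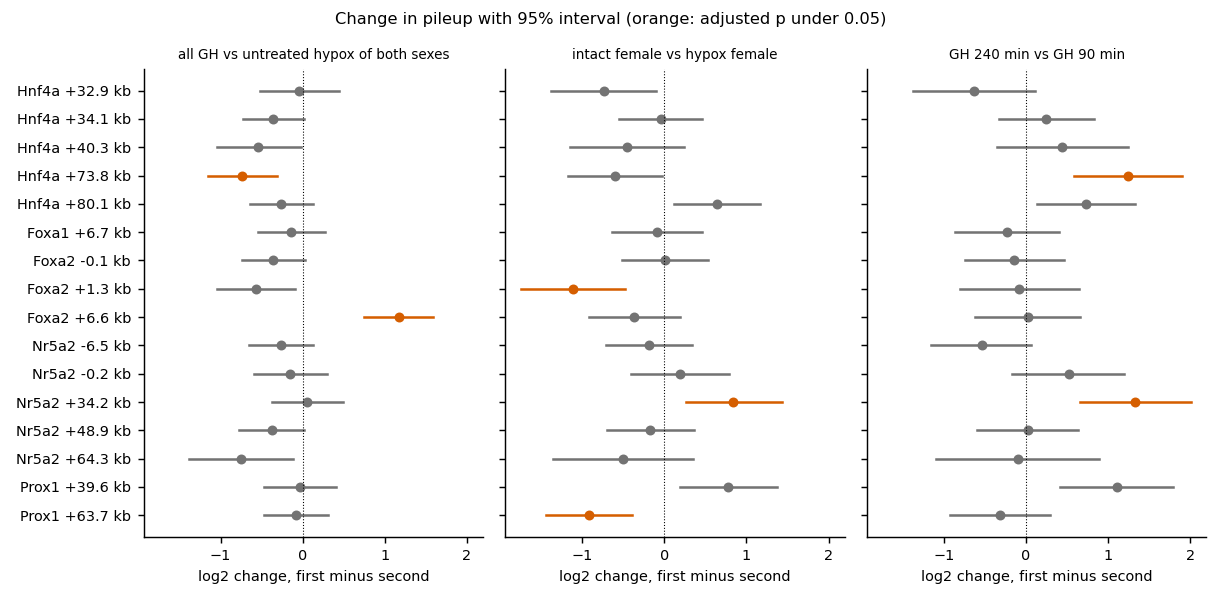
Log2 change in pileup with its 95% interval at the 16 member regions called in all 14 libraries, for 3 comparisons, with orange for an adjusted p under 0.05. In the panel of all GH against untreated hypox of both sexes, only Foxa2 +6.6 kb and Hnf4a +73.8 kb are orange. Most other points in that panel lie below 0 relative to the library median, down to -0.75 at Nr5a2 +64.3 kb. Without centring 4 of the 16 in that panel change sign.

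Sex was compared among untreated hypox mice, with sex and code confounded. Each sex had 1 specific region of 57, against 4.86% of all regions for males and 0.684% for females. They were Foxa3 +12.7 kb in males and Foxa3 +10.4 kb in females. In signal 0 of 16 regions passed, where 1 of 7423, 0.0135%, did, and 551 of the 7423 had an unadjusted p under 0.05. Leaving out hypox female pool 2 raised the specific regions to 9 in males and 5 in females, and leaving out hypox female pool 1 to 2 and 8.

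Other liver transcription factor genes were counted from a list of 27. All 27 had a region, 20 had 1 called in all libraries, and of 255 regions 48 were tested. After GH against untreated hypox of both sexes 9 rose and 1 fell, where 12.4% of all tested regions passed. Against hypox males 5 rose and 1 fell at 30 min, where 7.52% of all passed. At 90 min 6 rose and 2 fell, where 11.7% did. At 240 min 0 of the 48 passed by limma, where 0.876% of all did. An unadjusted p under 0.05 was found for 6 of the 48 and for 1044 of all 7423. Those that rose with the GH times averaged included 3 at Zbtb20, a repressor of fetal liver genes, with log2 changes of 1.36 to 1.92. Of these 3, 2 fell again from 90 to 240 min by 1.91 and 2.21 on the log2 scale (limma, adjusted p = 0.00482 and 0.00632). Another that rose in the average was at Xbp1, a factor of the unfolded protein response, with 1.43 ± 0.26 (limma, adjusted p = 0.00122). The 1 that fell was at Nr1i3, the xenobiotic receptor CAR, with -1.15 ± 0.22 (adjusted p = 0.00172). Of the 222 called in GH or untreated hypox libraries, 1 was specific to GH at all times, at Zbtb20, against 0.397% of all regions.

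Motifs of liver factors were searched on both strands in all windows. In 200 bp around the summit, the FOXA motif stood in 8 of 80 members and in 5.9% of all regions. The C/EBP motif stood in 7, 8.75%, against 15.1%. The HNF4A motif CAAAGTCCA was in 1 member, the NR5A2 motif TCAAGGNCA in 2, HNF6 in 2, the glucocorticoid receptor motif in 1 and HNF1 in 0, where the shares of all regions were 1.71%, 2.76%, 1.51%, 0.496% and 0.312%. No match says only that these letters were not in the window. Prox1 +63.7 kb held both the C/EBP and the NR5A2 motif. The median GC content was 51.0% in members and 48.5% in all regions.

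Regions elsewhere with the pattern most like that of a member were ranked by Pearson r over the 14 libraries, which share their depth and centring. For Foxa2 +6.6 kb they were nearest to Cyp2d26 (r = 0.9), Dsp (0.89) and E2f7 (0.87). For Hnf4a +73.8 kb they were nearest to Ppp1r3b, Cadm1 and Zfp259 (0.85 each). For Nr5a2 +34.2 kb they were nearest to Gm10768, Galntl5 and Bmp1 (0.92 each). For Foxa1 +6.7 kb the highest r was 0.85 and for Prox1 +39.6 kb 0.95. These are descriptions of 5 members against all other regions called in every library.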

How the data were processed

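Bowtie2 alignment to mouse build mm9 and MACS2 peak calling are per the submitters' processing notes. Per the file headers, MACS2 2.1.0.20150731 ran on each library without a control, keeping duplicates, with tags of 40 bp shifted by -100 bp and extended to 200 bp, at a q threshold of 0.05. The authors deposited for each peak a pileup signal at the summit, a fold enrichment and −log10 p and −log10 q values. These exist only where a peak was called, so no counts over common regions were compared. The combined group lists were not used.

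From these lists, peaks of 14 libraries on autosomes and X were merged, and regions within 20 kb of the 8 genes (GENCODE vM1, same build) were kept. Pileup was scaled to 1000000 tags (ppm), with tag totals per the file headers. The limma fit (3.58.1, in R 4.3.3) covered all groups, without a replicate block, and a second fit, added with the data in view, covered the GH libraries alone. Alternatives were a 10 kb window, −log10 p of at least 10, merging at 100 bp, lists of equal length, other centrings, other regions or samples in the fit, and leaving out each library. The limma step was tested on simulated data. Named regions were the region at the gene start, the strongest one, those specific to a side and those past the threshold, with at most 4 of each of the last 2 kinds at a locus, and any other region in the text was named after its values were seen. The members and lists were chosen with earlier results of these data known. Coordinates are 1-based. Sequences are given for 7 regions, and the others are not reported here. Depth limits which regions were called. Where 2 pools of a side are compared, precision is low.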

Additional observations from a re-analysis of the deposited data

Results flagged for a closer look

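The Foxa2 start region stood out within 1 group. In intact females its pileup was 6.58, 6.12, 3.59 and 6.54 ppm (pileup per 1000000 tags), and pool 3 lay apart from the rest, with a gap of 0.844 of the group's range (Dixon's critical value 0.83 for 4 samples). Of the 15 named regions with 4 intact female values, 1 was picked out in this way, and chance picks about 1 in 20. Relative to the library median the values were 0.87, 1.19, 0.47 and 0.71, and pool 3 was the lowest by 0.338 of the range, under the critical value. Pool 3 therefore stood apart in ppm and not on the centred scale. Pool 3 had the fewest tags and the fewest called regions of the 4 intact female pools, though not the fewest regions of all libraries. The part of either was not tested.

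Nr5a2 +34.2 kb differed between times after GH, by a log2 change of 1.33 between 240 and 90 min (limma, adjusted p = 0.0334). Hnf4a +73.8 kb differed in the same direction by 1.24 (limma, adjusted p = 0.0377). In both regions each 240 min pool was above each 90 min pool. The call was lost at both without any 1 of the 4 pools, with adjusted p of up to 0.289 and 0.275.

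Cebpa -11.6 kb differed between times in the opposite direction, in the limma fit on GH libraries alone, which was added with the data in view. The log2 difference was -1.72 between 240 and 90 min (adjusted p = 0.00517) and -1.13 between 240 and 30 min (adjusted p = 0.0349). The first held without each of the 4 pools, and the second was lost without 30 min pool 1 or either 240 min pool.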

How the results depend on the processing

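Leaving out 1 library at a time gave 73 to 80 member regions and 16 to 21 called in all libraries, with 21 without intact female pool 3. Specific regions numbered 2 to 10 between intact and hypox females (4 without intact female pool 2 or pool 3, 7 without hypox female pool 1, 10 without pool 2) and 3 to 14 between hypox males and females (without hypox female pool 1 they were 10, without its pool 2 they were 14, and 7 without hypox male pool 1). They numbered 17 to 20, 15 to 19 and 10 to 14 at 30, 90 and 240 min (13 and 14 without 240 min pool 1 or 2). For all GH against hypox females they numbered 3 to 7 (7 and 6 without hypox female pool 1 or 2). These counts cannot fall when a library is dropped. Regions past the limma threshold numbered 0 to 6 between intact and hypox females (5 and 6 without intact pool 2 or 3), 0 to 0 between hypox males and females, 0 to 1 at 30 and at 90 min, 0 to 0 at 240 min and 0 to 1 for all GH against hypox females. A lone pool is there assumed to vary like the other groups.

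With peaks of −log10 p of at least 10, specific regions numbered 1 between intact and hypox females, 9 at 30 min, 4 at 240 min (1 for GH and 3 for hypox males, in place of 7 and 1) and 1 for all GH against hypox females (0 and 1 in place of 3 and 0). With lists of equal length, the 2 between the females were 0 for intact and 2 for hypox, in place of 2 and 0. Without centring, regions past the threshold numbered 0 between intact and hypox females, 0 at 30 min, 1 at 90 min and 0 for all GH against hypox females. With only the groups compared in the fit they numbered 0, 4, 4 and 2. With code G92 alone they numbered 0 for the females and 2 for all GH against hypox females. With regions called in every library of the 2 groups they numbered 4 at 90 min. The fitted changes of member regions past the threshold kept their sign. Without centring, among the 16 tested member regions, 6 changes between 240 min and hypox males and 4 between all GH and untreated hypox libraries changed sign. Over all regions the number past the threshold without centring was 695 in place of 1605 for the females, 295 in place of 558 at 30 min and 426 in place of 865 at 90 min. At 240 min against hypox males it went up instead, with 140 higher and 2 lower in place of 44 and 21.

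Pool numbers were not used to pair libraries in the main fit. Correlations of deviations between same-numbered pools ran from -0.19 to 0.17, with 5 of 20 distinct values above 0.1. In groups of 2 pools both deviations are mirror images, so each such pair of groups gives 1 value. Of 12 libraries, 8 correlated best with their own number, so these values do not settle whether the pools were paired. With pool number as a replicate block, regions past the threshold numbered 0 between intact and hypox females and 2 for all GH against hypox females, and the number over all regions rose from 558 to 1212 at 30 min and from 865 to 1583 at 90 min.

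Depth and threshold limit the calls. Pileup is the depth at the summit of a called peak, summits may differ between libraries, and the fit over all groups covered 16 of 80 regions.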
